A study of Mus musculus with 4 samples.

Results

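MicroRNA genes account for 2896 of the 80881 accessible regions (peaks) in an ATAC-seq table of mouse lung adenocarcinoma cells, or 3.58% of all peaks. They were chosen by the symbol that the authors' annotation assigned to each peak, taking every symbol that begins with Mir and a digit or with Mirlet and leaving out Mir1907, Mir6351, Mir29a and Mir29b-1, which gave 699 genes. The rule itself uses no measured value, but it was drawn up with earlier results of these data known. ATAC-seq measures open chromatin through the insertions of a transposase. All 4 libraries came from a Cas9-expressing KP lung adenocarcinoma line that the labels name KPC cells, made with a lentivirus carrying SpCas9 and a puromycin marker, and CRISPR activation used the lentiviral vector lenti-SAM-Hygro. The 2 libraries of the group mA2 dRNA had a guide against Malat1, a nuclear long noncoding RNA, and the 2 of the group Con dRNA had a guide against luciferase. The sources used here give neither the time after transduction nor whether the line was a single clone.

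A microRNA is cut from a hairpin in a longer transcript, first by Drosha with Dgcr8 in the nucleus and then by Dicer in the cytoplasm. The mature strand is loaded into an Argonaute protein and pairs with messenger RNAs through its seed, the bases 2 to 8 from its 5′ end, which lowers their translation or stability. Many hairpins lie within introns of protein-coding genes and are transcribed with the host, while others have a start site of their own that can lie far from the hairpin. In lung tumours, let-7 is known as a repressor of Ras genes, miR-34a as a target of p53, and miR-21 and miR-155 as microRNAs raised in cancer and inflammation.

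Selected microRNAs with a changed peak are shown by their mature sequences, with the seed in capitals, because the seed decides which families they belong to. Others with a changed peak, such as Mir30d and Mir187, are not shown. The sequences are RefSeq's for the build GRCm38.p6.
mmu-miR-146a-5p: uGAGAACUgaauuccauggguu
mmu-miR-146b-5p: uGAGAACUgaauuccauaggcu
mmu-miR-155-5p: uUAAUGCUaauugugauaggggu
mmu-miR-21a-5p: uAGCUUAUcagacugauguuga
mmu-let-7i-5p: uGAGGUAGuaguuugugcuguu
mmu-let-7k: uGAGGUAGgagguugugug
mmu-miR-181a-5p: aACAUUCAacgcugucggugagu
mmu-miR-137-3p: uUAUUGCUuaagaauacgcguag
mmu-miR-196b-5p: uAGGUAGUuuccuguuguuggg
mmu-miR-129-5p: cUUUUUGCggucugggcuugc
mmu-miR-3072-3p: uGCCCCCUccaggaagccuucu

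Peaks opened more often than they closed at microRNA genes with the Malat1 guide, at about the rate of the genome as a whole. Values are the mean normalized reads that the authors give for a peak in each group. A peak rose or fell, in the words used here, if the authors' deposited table lists it with an adjusted p under 0.05. The sources used here do not name the test. By that measure 73 of the 2896 peaks rose, or 2.52%, beside 2.23% of all peaks. A further 9 fell, or 0.311%, beside 0.507% of all peaks. The 82 changed peaks, 2.83% beside 2.73% of all peaks, belonged to 54 genes, of which 46 had a rise and 9 a fall. Before adjustment, p in the authors' deposited table lay under 0.05 for 353 peaks, 12.2% of them, beside 11.7% of all peaks.

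The median rise was 3.51-fold, with a range from 1.30-fold to 8.42-fold. The median fall was 2.86-fold, with a range from 1.96-fold to 5.57-fold. Over all 2896 peaks the log2 difference of the group means, Malat1 guide minus luciferase guide, had a median of 0.12, beside 0.09 over all peaks. The Malat1 group had the greater mean at 62.9% of the microRNA peaks and at 60.8% of all peaks. The table's columns per library match no sample label and were left unused, so the spread between libraries and each library's depth are not given here. Only group means are printed, without an error. Sums of the normalized group means can be given, but they are not sequencing depth. Over the microRNA peaks they were 403346 reads in the Malat1 group and 369277 in the luciferase group. The ratio was 1.09, beside 1.07 over all peaks. The cells were profiled in bulk, so more open cells and more opening per cell cannot be told apart.

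**Figure D1:**
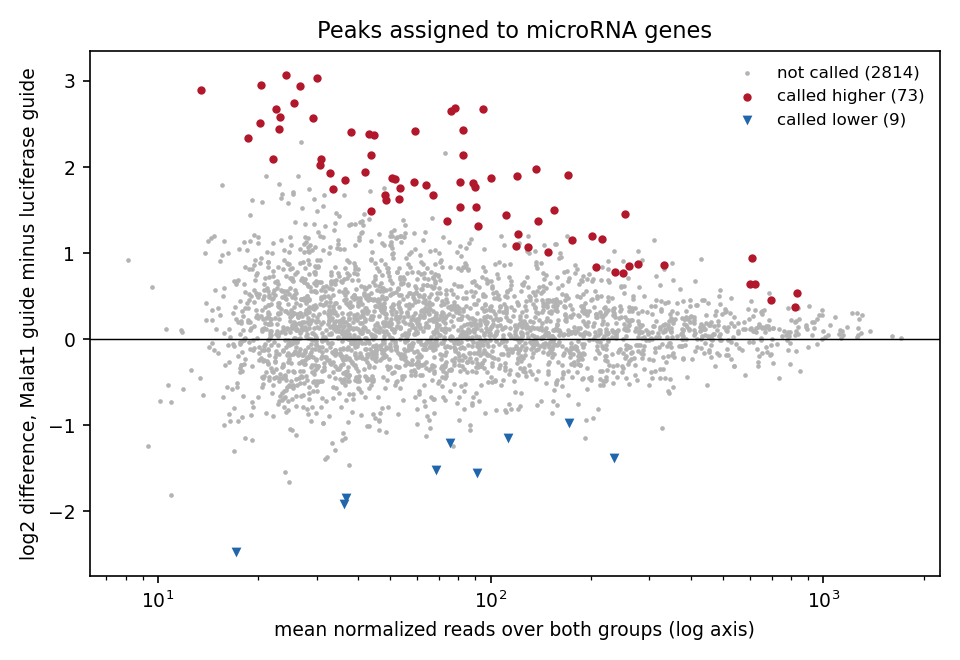
Each point is 1 of the 2896 peaks, with the mean normalized reads over both groups on a log axis and the log2 difference of the group means (Malat1 guide minus luciferase guide) on the vertical axis. The 73 peaks that rose and the 9 that fell are coloured, and the differences spread most at low reads.

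The excess of rises over falls was smaller when the differences were centred, that is, when a median difference was subtracted from each and p recomputed. Rises made up 89.0% of the calls as deposited. Centring on the median of all peaks left 52 rises and 17 falls (75.4% rises), beside 1.62% and 0.729% of all peaks. Centring by chromosome left 49 and 15 (76.6%), beside 1.46% and 0.591%, and centring along abundance 53 and 14 (79.1%), beside 1.59% and 0.697%. Centring by 10 Mb window left 47 and 16 (74.6%), beside 1.32% and 0.549%. Of the 73 rises, 42 kept their call under all 4 centrings tried and 16 under none, and 7 of the 9 falls kept theirs under all 4.

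The assigned microRNA was usually not next to the peak. The median distance to the assigned start site was 23.1 kb, beside 19.3 kb over all peaks, and the farthest peak lay 930 kb away. Promoter peaks, those within 1 kb, were 6.63% of the microRNA peaks, beside 16.8% of all peaks, and intron peaks were 49.1% beside 38.4%. The 192 promoter peaks had a median of 101 normalized reads, beside 272 over all promoter peaks. Of the 73 rises, 37 were classed as intron, 26 as distal intergenic and 4 as promoter, and of the 9 falls 6 were distal intergenic. In either direction, 2.74% of the intron peaks were called, beside 3.03% of all intron peaks. The shares were 3.83% beside 3.19% for distal intergenic peaks and 2.08% beside 1.42% for promoter peaks. At more than 100 kb, 24 of 488 peaks changed, or 4.92%, beside 5.09% of all peaks at that distance. The number of peaks of a gene ranged from 1, for 194 genes, to 34.

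RefSeq's microRNA table held a hairpin for 599 of the 699 genes, and 2458 peaks lay on the same chromosome as the hairpin of their gene. Of these, 1248 lay inside the same protein-coding gene as the hairpin, and 34 of them rose and 1 fell. A further 202 lay inside another protein-coding gene, where 5 rose and 1 fell, and 1008 lay in none, where 19 rose and 5 fell. These are 2.80%, 2.97% and 2.38% called, beside 2.73% of all peaks. A peak assigned to a microRNA was therefore often a peak in the body of the protein-coding gene that holds the hairpin. Such a gene is called the host below by position alone, because strands were not compared. Only 57 peaks overlapped the hairpin itself, and 45 covered it whole. Of the 57, 2 rose and none fell, or 3.51% called beside 2.73% of all peaks. Before adjustment, 7 (12.3%) had p under 0.05 in the authors' deposited table, beside 11.7% of all peaks.

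Both hairpins that a risen peak overlapped lie inside protein-coding genes, Mir3154 in Dnm1, which encodes dynamin 1, a GTPase of vesicle fission, and Mir3092 in Fndc3b. They are printed 5′ to 3′ with the mature strands in capitals, because no other hairpin in the table was overlapped by a called peak. All 79 bases of Mir3154 (chr2:32318265-32318343, plus strand, GRCm38.p6) and 71 of the 96 bases of Mir3092 (chr3:27584900-27584995, minus strand) lay under the risen peak.
Mir3154: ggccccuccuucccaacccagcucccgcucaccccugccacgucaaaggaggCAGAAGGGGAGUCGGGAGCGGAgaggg
Mir3092: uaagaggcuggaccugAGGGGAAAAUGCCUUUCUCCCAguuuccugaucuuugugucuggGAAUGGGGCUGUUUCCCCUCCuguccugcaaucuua

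The peak over Mir3154 (chr2:32317950-32318350, mm10) held 371 normalized reads in the Malat1 group and 135 in the luciferase group. It rose 2.75-fold, and the authors' deposited table gave an adjusted p of 9.9e-05. The peak over Mir3092 held 266 and 149 reads, a 1.79-fold rise (adjusted p of 0.0273 by the authors' deposited table). Mir3154 kept its call under all 4 centrings, whereas Mir3092 kept it under 1, with an adjusted p between 0.0258 and 0.0791.

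The other risen promoter peaks lay at Mir7028 and Mir6991. Mir7028 lies in Tchp, the gene of the keratin-binding protein trichoplein, and its peak held 737 against 471 reads, 1.56-fold higher (adjusted p of 0.00119 by the authors' deposited table). Mir6991 had 299 against 173 reads, 1.72-fold higher (adjusted p of 0.0393 by the authors' deposited table), and no centring kept that call (0.1 to 0.241). The most open peaks over hairpins did not pass the test. Mir7238 held 1296 and 1251 reads, Mir7687 836 and 807, Mir5133 780 and 806, and Mir1956 715 and 741, so that 2 of these 4 were higher and 2 lower with the Malat1 guide.

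The microRNAs of inflammation and hypoxia held regions that rose at 4 genes: Mir146, Mir146b, Mir155 and Mir21a. The list had 146 peaks at 19 genes, of which 4 rose and none fell, and 104 had the higher mean in the Malat1 group. The 4 calls are 2.74% of the list, beside 2.73% of all peaks. Its median log2 difference was 0.13, beside 0.09 over all peaks. The lists were chosen with earlier results of these data known.

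Mir146 encodes miR-146a, which is induced by NF-kB and represses Traf6 and Irak1, both signalling proteins of that pathway. The peak that rose lies 10.8 kb upstream of the hairpin, in sequence classed as exon (chr11:43385280-43385680, mm10). It held 280 normalized reads with the Malat1 guide against 122 in the luciferase group, a 2.30-fold rise (adjusted p of 0.00172 by the authors' deposited table). The peak nearest to the hairpin, 0.669 kb away, held 118 and 127 reads and was not called. A peak 15.4 kb downstream had 46.6 against 22.4 reads, and 7 of the 8 Mir146 peaks had the higher mean in the Malat1 group, although a single one passed the test. The 4 centrings left the call in place, with an adjusted p between 0.00521 and 0.00659. None of the 48 other peaks within 500 kb changed.

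Mir146b shares the whole seed GAGAACU with Mir146 and lies on another chromosome. Its risen peak, 14 kb downstream (chr19:46356747-46357147), held 199 against 98.4 reads, a 2.02-fold rise (adjusted p of 0.0473 by the authors' deposited table). A peak at 6.0 kb held 664 against 520 reads without passing the test. The risen peak also overlapped the RefSeq promoter window of Mfsd13a by 183 bases. Of the 84 other peaks within 500 kb, 10 rose, at Actr1a, As3mt, Gbf1, Hps6, Nolc1, Sufu, Trim8 and Wbp1l, and their median log2 difference was 0.46. Every centring ended the Mir146b call, with an adjusted p from 0.0987 to 0.306.

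Mir155, processed from the Mir155hg transcript and known for its part in macrophage and lymphocyte activation, had 1 peak. This peak lies 6.57 kb downstream in an intron of the mitochondrial ribosomal gene Mrpl39 (chr16:84720707-84721107). It held 36.0 reads in the Malat1 group and 8.45 in the luciferase group, 4.26-fold higher (adjusted p of 0.0319 by the authors' deposited table). The host transcript Mir155hg had 8 peaks of its own, and 7 had the higher mean in the Malat1 group. At its start site 122 and 80.5 reads were counted (adjusted p of 0.597 by the authors' deposited table). No centring kept the Mir155 call (0.051 to 0.154), and 3 of the 32 other peaks within 500 kb rose, at App, Jam2 and 4930553E22Rik. The median log2 difference of those 32 peaks, the Mir155hg peaks among them, was 0.44.

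Mir21a, whose microRNA represses Pdcd4, had 18 peaks, and at 13 the mean of the Malat1 group was the greater. The risen one lies 13.6 kb downstream, within the RefSeq bounds of the tubulin gene Tubd1 (chr11:86570164-86570564), and held 358 against 196 reads. That is 1.83-fold higher (adjusted p of 0.03 by the authors' deposited table), and no centring kept the call (0.0686 to 0.0879).

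The rest of the list did not pass the test. Mir210, the microRNA induced by hypoxia, had 1111 and 990 reads at a peak 0.181 kb from its start. Mir132 had 432 and 343 reads at its start (adjusted p of 0.473 by the authors' deposited table). Mir222 had 9 of 11 peaks and Mir221 8 of 9 with the higher mean in the Malat1 group, and Mir9-2 had 0 of 3. The genes with the most peaks on the list, Mir125b-1 with 26 and Mir21c with 33, had no changed peak.

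**Figure D2:**
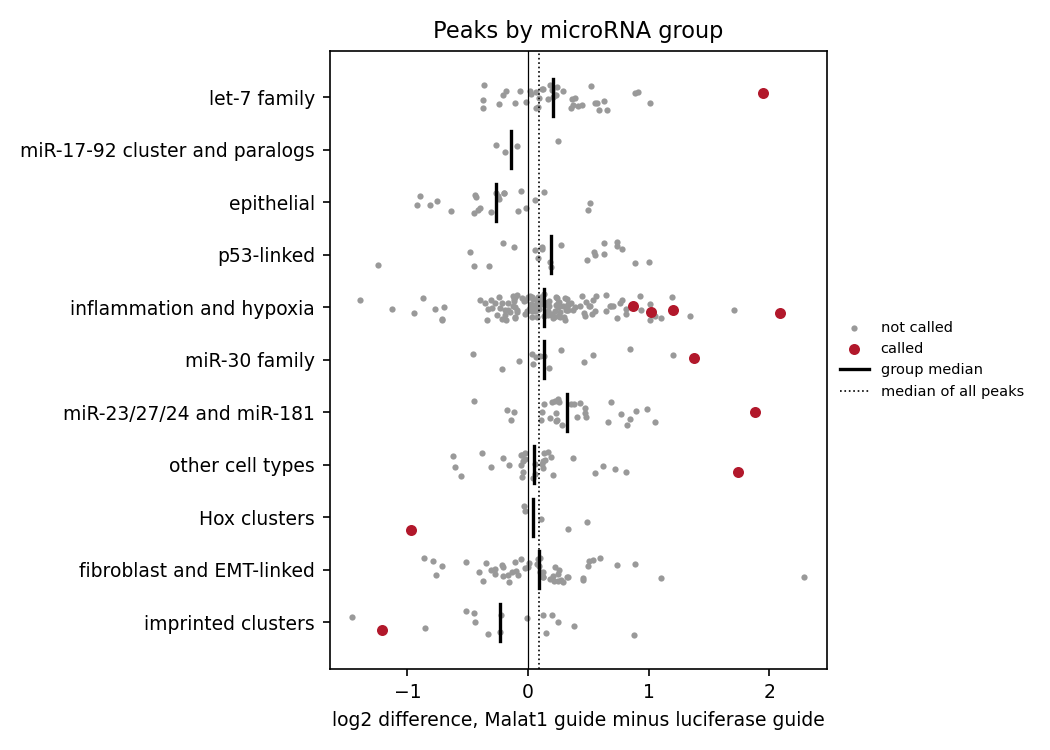
Log2 differences of the group means (Malat1 guide minus luciferase guide) for the peaks of each microRNA list, 1 point per peak, with called peaks coloured, a bar at each list's median and a dotted line at the median of all peaks. The epithelial list lies mostly below 0 and the list of miR-23, miR-27, miR-24 and miR-181 mostly above, with 4 of 23 and 28 of 32 peaks higher.

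In the let-7 family a single region opened, far from the microRNA. The family had 41 peaks at 9 genes, of which 1 rose and none fell, or 2.44% called beside 2.73% of all peaks. The higher mean was in the Malat1 group at 32 peaks, and the median log2 difference was 0.21. The risen peak belongs to Mirlet7i and lies 84.9 kb downstream in an intron of the phosphatase gene Ppm1h (chr10:122900535-122900935). It held 66.5 against 17.3 reads, a 3.85-fold rise (adjusted p of 0.0150 by the authors' deposited table). The promoter peak of Mirlet7i, 0.311 kb upstream, held 154 and 162 reads (adjusted p of 0.993 by the authors' deposited table). At Mirlet7c-2 all 5 peaks had the higher mean in the Malat1 group, the strongest with 326 against 174 reads, and 3 had p under 0.05 before adjustment by the authors' deposited table, though none was called. Both Mir98 peaks had the lower mean, at 281 against 333 and 50.1 against 65.0 reads.

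Mir7k, whose product let-7k has the let-7 seed, was no member of that list as drawn up. Its peak 5.29 kb downstream (chr5:147277610-147278010) rose 3.94-fold, from 55.5 to 219 reads (adjusted p of 4.22e-06 by the authors' deposited table). All 4 centrings kept that call. Within 500 kb 6 of the 66 other peaks rose as well, at the intestinal and pancreatic transcription factor genes Cdx2 and Pdx1, the VEGF receptor gene Flt1, and Gtf3a and Plut. None fell there.

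Shared seeds seldom had changed peaks at more than 1 gene. The RefSeq table held 1006 mature sequences for 626 of the genes, with 877 distinct seeds, of which 85 were shared by 2 or more genes. Calls at 2 genes were found for 2 of the shared seeds. GAGAACU had 10 peaks at Mir146 and Mir146b, of which 2 rose (20%). GAGGUAG had 57 peaks at 10 genes, including Mirlet7i and Mir7k, of which 2 rose (3.51%). These 2 seeds were picked by their calls, so their shares cannot be compared with the 2.73% called over all peaks. The Mir146b call among them was kept by no centring.

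Of the miR-30, miR-181 and miR-23 genes, Mir30d and Mir181a-1 had 1 risen peak each. Of 15 peaks of the miR-30 family, 1 rose, or 6.67% beside 2.73% of all peaks. It lies 60.3 kb upstream of Mir30d and held 107 against 41.1 reads, 2.60-fold higher (adjusted p of 0.0299 by the authors' deposited table). No centring kept it (0.0575 to 0.167), and 2 of the 18 other peaks within 500 kb rose, at Zfat. The Mir30a promoter peak had the lower mean, 258 against 355 reads (adjusted p of 0.400 by the authors' deposited table). The list of miR-23, miR-27, miR-24 and miR-181 genes had 32 peaks, 28 with the higher mean and a median log2 difference of 0.32, and again 1 rose, or 3.12% beside 2.73% of all peaks. It lies 378 kb upstream of Mir181a-1, of a family known for lymphocyte development, and held 79.7 against 21.7 reads. This 3.68-fold rise came with an adjusted p of 0.00370 by the authors' deposited table, and all 4 centrings kept it. Mir23b had the higher mean at 14 of 15 peaks without a call, for example 288 against 163 reads in an intron 41.8 kb upstream.

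Epithelial and p53-linked microRNAs had no changed peak among 23 each, beside 2.73% called over all peaks. The epithelial list had 23 peaks, 20 of them at Mir205, and 4 of the 23 had the higher mean in the Malat1 group, with a median log2 difference of -0.27. miR-205 is known to repress Zeb1 and Zeb2, as the miR-200 family does. Its peak 118 kb upstream came closest to a fall, with 141 against 266 reads (adjusted p of 0.0503 by the authors' deposited table). Centring on the median of all peaks took that value to 0.0263 and centring by 10 Mb window to 0.313. Over the 271 peaks of that window, Mir205's among them, the median log2 difference was -0.25, near the -0.27 of the list. At Mir375, a microRNA of pancreatic islets and lung neuroendocrine cells, 22.3 and 26.8 reads were counted, and at Mir429, of the miR-200 family, 38.3 and 40.5. Mir34a, the p53 target, lay on the other side of 0. All 7 of its peaks had the higher mean, with 62.2 against 36.2 reads over the hairpin and 93.4 against 46.7 reads 1.71 kb downstream, for which the authors' deposited table lists adjusted p of 0.528 and 0.176. Of all 23 p53-linked peaks 17 had the higher mean.

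The miR-17-92 list is represented by 4 peaks of Mir17, the first hairpin of a cluster that promotes proliferation. None changed, and the peak 1.17 kb upstream held 155 and 176 reads. Fibroblast and EMT-linked microRNAs had 53 peaks at 12 genes and no call, beside 2.73% called over all peaks. The most open of all microRNA peaks belongs to this list, at the start of the host transcript Mir22hg, with 1718 and 1708 reads (adjusted p of 0.997 by the authors' deposited table). Its promoter is printed because the whole stretch lay under that peak (capitals), the strongest of the 2896. It covers the 250 bases before the start (chr11:75461289-75461538, plus strand, GRCm38.p6, RefSeq).
Mir22hg: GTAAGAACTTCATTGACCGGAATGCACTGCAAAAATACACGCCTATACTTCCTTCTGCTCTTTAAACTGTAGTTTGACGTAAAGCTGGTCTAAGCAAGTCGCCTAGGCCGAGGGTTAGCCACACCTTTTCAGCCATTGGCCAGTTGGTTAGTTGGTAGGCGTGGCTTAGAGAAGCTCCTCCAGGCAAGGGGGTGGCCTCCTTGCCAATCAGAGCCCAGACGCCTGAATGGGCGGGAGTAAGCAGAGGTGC

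Searched on both strands, this stretch had 1 match to GGAATG, the letters bound by TEAD factors, and 1 to GGGCGGG, bound by SP and KLF factors. Such matches were found in 12.6% and 23.4% of the 32851 RefSeq promoters over the same 250 bases. It had 0 matches to TGANTCA (AP-1, found in 6.75%), to TGACGTCA (CRE, 1.55%), to CCGGAAG (ETS, 6.91%) and to the NF-kB motif (3.90%). A match describes the letters only. Over all microRNA peaks, 88 (3.04%) overlapped a RefSeq promoter window, and 2 of the 88 rose, beside 2.23% of all peaks. The 2 were the Mir146b peak above and a peak assigned to Mir5623.

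The risen Mir5623 peak (chr19:58043537-58043937) lies in Atrnl1, 7.23 kb upstream, and held 72.2 against 13.9 reads. It was 5.20-fold higher (adjusted p of 0.0126 by the authors' deposited table). A second Mir5623 peak, 94.4 kb downstream, fell 2.22-fold, from 156 to 70.1 reads (adjusted p of 0.0338 by the authors' deposited table), so that Mir5623 alone among the 54 genes had calls in both directions. The fall kept its call under all 4 centrings and the rise under 3. The risen peak covers 171 of the 250 bases before the start of the gene model Gm32980 (chr19:58043458-58043707, minus strand, GRCm38.p6, RefSeq), shown in capitals as the bases of a promoter window under a risen peak. None of the 6 motifs above matched in it.
Gm32980: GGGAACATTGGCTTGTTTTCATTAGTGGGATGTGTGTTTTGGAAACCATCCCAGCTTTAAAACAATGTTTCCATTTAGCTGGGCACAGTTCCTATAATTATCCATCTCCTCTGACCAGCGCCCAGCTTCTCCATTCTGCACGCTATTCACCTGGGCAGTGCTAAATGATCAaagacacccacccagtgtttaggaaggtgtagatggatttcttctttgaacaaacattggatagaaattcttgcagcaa

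MicroRNAs of other cell types had 1 changed peak. Of 32 peaks at 12 muscle, neural, liver, blood and endothelial microRNAs, 1 rose and none fell, or 3.12% called beside 2.73% of all peaks, and 17 had the higher mean. The risen peak lies 101 kb upstream of Mir137, a neural microRNA, and held 51.9 against 15.5 reads, 3.35-fold higher (adjusted p of 0.0389 by the authors' deposited table). It kept the call under 2 of the 4 centrings (0.0344 to 0.0839). Mir206, of skeletal muscle, had 49.4 and 32.1 reads at its start, and none of the 12 peaks of the liver microRNA Mir122 changed.

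The cells' own identity was checked at promoters of marker genes. Peaks within 1 kb of the start were found for 7 of 12 lung and epithelial markers, with sums of 1457 and 1319 reads in the Malat1 and luciferase groups, but for none of Nkx2-1, Sftpc, Epcam, Cldn4 and Cldn7. Leukocyte markers had such a peak at 1 of 10 genes (53.5 and 45.2 reads), endothelial markers at 2 of 6 (96.0 and 75.2) and fibroblast markers at 3 of 6 (752 and 644). All 4 sums were higher with the Malat1 guide. Over all their peaks, 5 of 29 endothelial peaks rose (17.2%, from 3.07-fold to 6.77-fold), all 5 of them at 1 of the 6 genes. Of 52 fibroblast peaks 4 rose, at 2 genes, and 1 fell (9.62%). Of 103 lung and epithelial peaks 2 rose, at 2 genes (1.94%), and none of 14 leukocyte peaks was called. Over all peaks 2.73% were called. The part of these marker regions in the differences at microRNA genes was not tested.

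Chromatin closed at 9 microRNA peaks. Mir196b lies in the Hoxa cluster, where its microRNA is known to repress Hox genes. Its only peak, 4.13 kb downstream in Hoxa9 (chr6:52226000-52226400), fell 1.96-fold, from 228 to 116 reads (adjusted p of 0.0159 by the authors' deposited table). Of the 80 other peaks within 500 kb, 3 fell and none rose, at Hoxa11, Hoxaas2 and Skap2, with a median log2 difference of -0.19. All 4 centrings kept the Mir196b call. No peak of the other Hox microRNAs passed the test, among them Mir10a with 68.9 and 54.8 reads and Mir615 with 137 and 127.

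Mir129-1 had the lower mean at 9 of its 10 peaks. The peak 15.7 kb downstream (chr6:29038344-29038744) fell 2.94-fold, from 136 to 46.1 reads (adjusted p of 0.00158 by the authors' deposited table). Mir187 had both of its peaks lower, and the one 8.78 kb downstream fell 2.60-fold, from 340 to 131 reads (adjusted p of 1.05e-04 by the authors' deposited table). It was the fall with the smallest p. Neither had another change among the 88 and 61 other peaks within 500 kb.

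Mir6378 lies near Sox2, a transcription factor of stem cells and airway epithelium. Its peak 43.4 kb upstream (chr3:34966060-34966460) fell 5.57-fold, from 29.0 to 5.21 reads (adjusted p of 0.0303 by the authors' deposited table). Its other peaks were not called and went opposite ways, with 36.0 against 62.4 reads at 144 kb and 35.4 against 11.4 reads at 303 kb. Within 500 kb 2 of 18 other peaks fell, both assigned to Sox2, and their median log2 difference was -0.61. The imprinted Dlk1-Dio3 region expresses a large microRNA cluster from the maternal chromosome. Its 16 peaks at 4 genes held 1 fall, or 6.25% called beside 2.73% of all peaks. That peak, 127 kb downstream of Mir3072, fell 2.31-fold, from 106 to 45.7 reads (adjusted p of 0.0487 by the authors' deposited table), a call that 3 of the 4 centrings kept.

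The remaining falls lay at Mir7004, Mir7041 and Mir6897. The Mir7004 peak lies in the flippase gene Atp9a and fell from 57.2 to 15.1 reads, 3.78-fold. All 7 Mir7004 peaks had the lower mean in the Malat1 group. The Mir7041 peak lies in Lrig1, a regulator of EGF receptor signalling, and fell from 57.4 to 15.9 reads, 3.6-fold. At Mir6897 a peak fell 2.86-fold, from 101 to 35.4 reads, and kept its call under 2 of the 4 centrings, whereas Mir7004 and Mir7041 kept theirs under all 4.

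**Figure D3:**
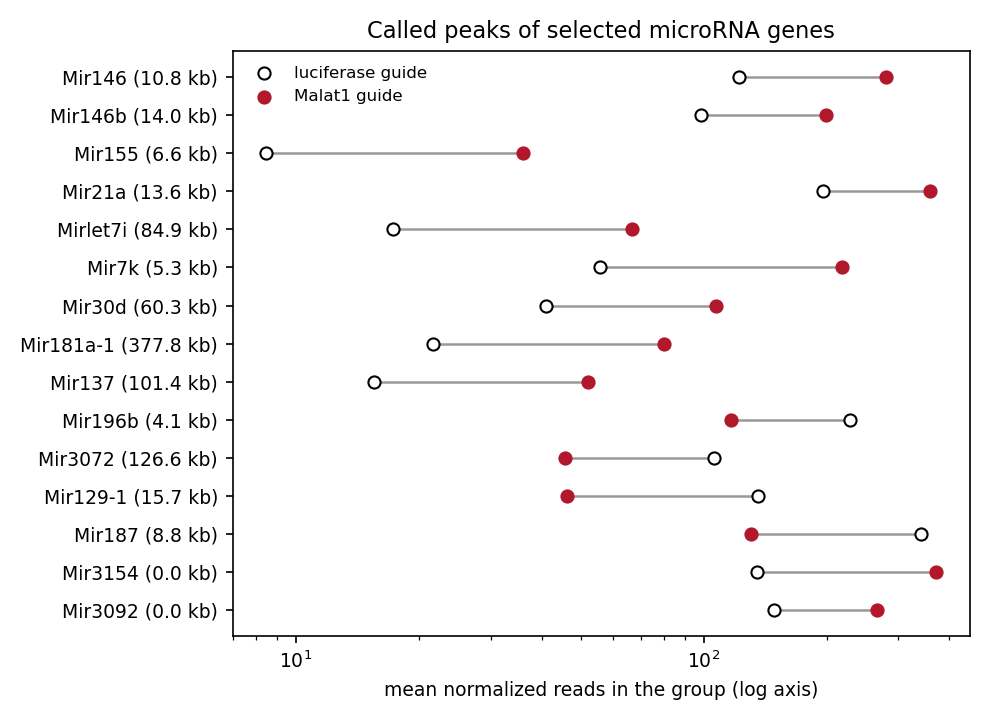
Mean normalized reads on a log axis in the Malat1 and the luciferase group for called peaks of selected microRNA genes, 1 line per peak, labelled by the assigned microRNA and its distance in kb. The Mir146 peak goes from 122 to 280 reads and the Mir196b peak from 228 to 116.

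The 3 rises with the smallest p lay in the bodies of host genes. The first was in Gli2, a transcription factor of Hedgehog signalling that holds Mir6346. The peak 22.3 kb downstream of the hairpin (chr1:118976524-118976924) rose 3.76-fold, from 71.6 to 270 reads (adjusted p of 2.8e-07 by the authors' deposited table). The other 2 called Mir6346 peaks rose in the same gene, with 132 against 20.9 and 120 against 41.5 reads, and the uncalled peak also had the higher mean. The call at 120 against 41.5 reads was kept by 1 of the 4 centrings. In Cmip, the host of Mir7077, a peak 57.5 kb upstream (chr8:117395137-117395537) rose 6.37-fold, from 25.7 to 164 reads (adjusted p of 2.8e-07 by the authors' deposited table). A weaker rise in Cmip, 807 against 589 reads, was kept by no centring (0.134 to 0.296).

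In Sh3pxd2a, which encodes the podosome scaffold Tks5 and holds Mir6995, 3 of 20 peaks rose and 19 had the higher mean. The strongest (chr19:47330662-47331062) held 805 against 417 reads, 1.93-fold higher (adjusted p of 6.15e-07 by the authors' deposited table). The others held 759 against 488 and 243 against 109 reads, and each kept its call under 2 of the 4 centrings. Other host genes with a risen peak were Bcl2, the inhibitor of apoptosis, with Mir3473f (71.3 against 16.2 reads), Klf7 with Mir6899 (170 against 72.6), Sema4a with Mir7011 (299.5 against 134), and the netrin gene Ntn1 with Mir6406 (137 against 39.2).

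Many of the changed peaks lay within 1 Mb of another. Called peaks outside microRNA genes were not joined in the same way, so no background is given. When calls less than 1 Mb apart were joined, the 82 peaks formed 52 loci, of which 17 held 2 or more calls and 47 of the 82 peaks. Of the 52 loci, 43 held only rises, 8 only falls and 1 both, and 16 genes had 2 or more called peaks. Peaks of 1 locus are neighbours on the DNA and were counted singly above, so they are not independent. The spans below run from the first to the last call, so the calls themselves set their bounds.

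A group of 4 rises was found at each of Mir691, Mir5127 and Mir3090, and on chromosome 19 over 974 kb from Mir146b to Mir6995, where 12 of all 99 peaks in the span rose. At Mir691, whose hairpin is in the axon guidance receptor gene Robo2, the 4 rises spanned 611 kb. They were 4 of the 5 Mir691 peaks and all the peaks between the outermost calls. They held 135 against 30.6, 53.7 against 6.54, 39.2 against 6.15 and 31.1 against 6.15 reads. Only the last of these peaks lies in Robo2, and the first 3 lie in no protein-coding gene. The farthest lay 858 kb from the start. The first 3 calls were kept by all 4 centrings and the last by 2. At Mir3090, 4 of 17 peaks in 256 kb rose, led by 430 against 236 reads, a call that 2 of the 4 centrings kept, and 19 of all 20 Mir3090 peaks had the higher mean, 15 with p under 0.05 before adjustment by the authors' deposited table. Mir5127 had 4 rises among its 10 peaks, and 7 peaks lay in the 343 kb that the calls span. The rises went from 23.8 against 3.21 to 176 against 83.8 reads.

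Clusters of 3 rises were found at Mir6346 in Gli2, at Mir3059 in Mgat4c, at Mir3099 in Usp29, at Mir6368 and at Mir3964. All 3 calls of Mir3059 were kept by all 4 centrings. At Mir3099 and at Mir3964 2 were kept by all 4 and 1 by 3, and at Mir6368 1 was kept by all 4, 1 by 3 and 1 by none. Usp29 belongs to the imprinted Peg3 domain and is expressed from the paternal chromosome. All 3 Mir3099 peaks rose there within 10.8 kb, with 75 against 14.4, 34.5 against 6.06 and 50.0 against 11.7 reads. In Mgat4c the 3 rises, of 5 Mir3059 peaks, were the only peaks in the 83.3 kb that they span. The strongest held 163 against 59.9 reads. Mir3964 had 9 peaks, all with the higher mean, and its strongest (chr15:29776448-29776848) rose 5.38-fold, from 26.0 to 140 reads.

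**Figure D4:**
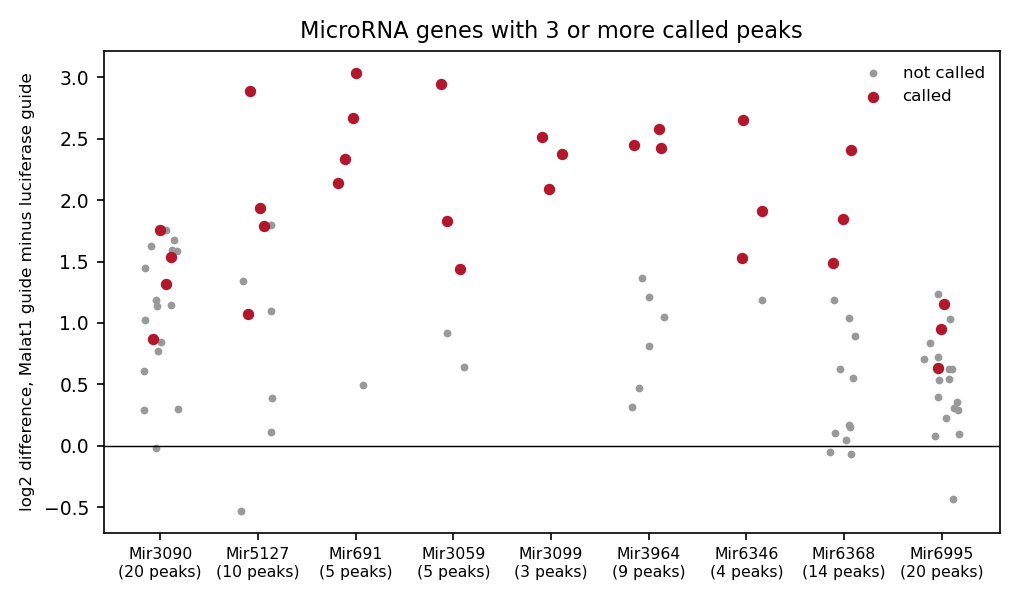
Log2 difference of the group means for every peak of the 9 microRNA genes with 3 or more called peaks, each gene a column and called peaks in red. No called peak lies below 0, and at Mir3090 19 of 20 peaks and at Mir6995 19 of 20 lie above it.

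Changed microRNA peaks were spread unevenly over chromosomes. On chromosome 15, 12 of 158 peaks changed, all of them rises, or 7.59% beside 5.07% of all peaks on that chromosome. On chromosome 19 the shares were 6.09% and 3.85%, and on chromosome 18 they were 5.61% and 1.72%. None of the 87 peaks on chromosome 14, the 61 on chromosome 17 or the 64 on chromosome X changed. Over all peaks the shares there were also low, at 2.05%, 2.00% and 0.971%. The median log2 difference of all peaks was 0.21 on chromosome 15 and 0.20 on chromosome 19, beside -0.12 on chromosome X. These shares count neighbouring peaks singly.

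**Figure D5:**
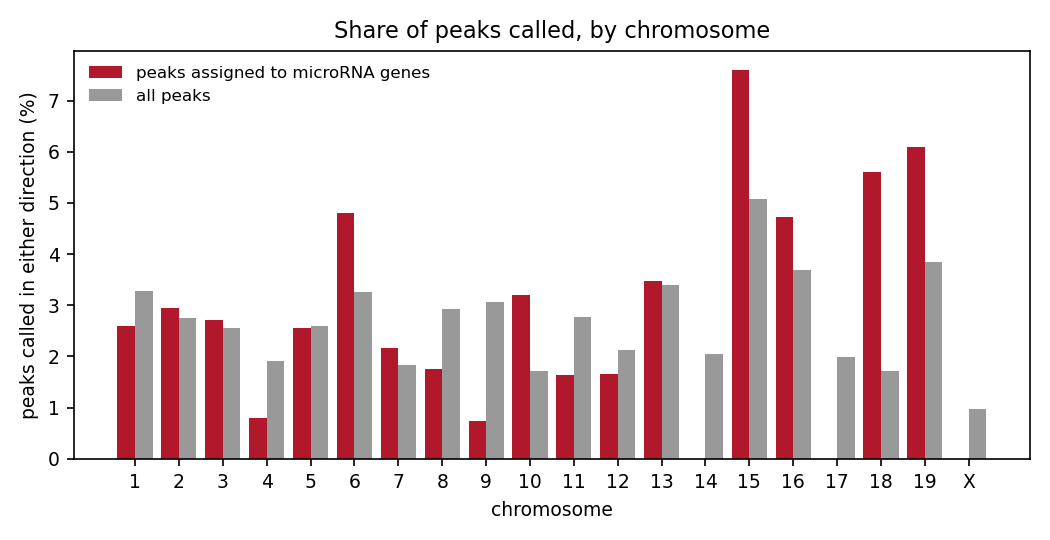
Percent of peaks called on each chromosome, for microRNA peaks and for all peaks. Chromosome 15 is highest for both, at 7.59% and 5.07%, and chromosomes 14, 17 and X have no called microRNA peak.

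The genes that make and use microRNAs changed at 1 peak. Of 28 listed symbols 23 had a peak, 99 in all. Zcchc11 and Zcchc6 on that list are older symbols of Tut4 and Tut7, which are listed too. Of the 99 peaks 61 had the higher mean in the Malat1 group, with a median log2 difference of 0.07. These are 1.01% called and 61.6% with the higher mean, beside 2.73% and 60.8% of all peaks. The peak that rose is in an intron of Ago2, the Argonaute protein that cleaves targets. It held 1324 against 917 reads, 1.44-fold higher (adjusted p of 0.0350 by the authors' deposited table), and no centring kept the call (0.101 to 0.441). Tnrc6a, a scaffold of the silencing complex, came next with 316 against 153 reads (adjusted p of 0.0562 by the authors' deposited table).

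No start-site peak of the processing enzymes passed the test, and no peak was assigned to Drosha. Dicer1 had 374 and 348 reads at its promoter, Dgcr8, the partner of Drosha, 746 and 652, and Tarbp2, the partner of Dicer, 1529 and 1336. The Ago2 promoter had 486 and 447 reads. Adjusted p for these promoters lay between 0.441 and 0.968 in the authors' deposited table.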

How the data were processed

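ATAC-seq was compared between 2 libraries with a Malat1 guide and 2 with a luciferase guide, grouped by the labels. Per the submitters' processing notes, the build was mm10 and the tools, without versions or roles, were Bowtie2, MACS2, DiffBind, ChIPseeker, Picard, deepTools and FastQC. The sources used here do not say how duplicates were handled, read ends shifted, libraries normalized or peaks called. Per the file headers, the authors' values are log2 mean normalized reads per peak and group, a log2 fold, and a p-value and adjusted p-value. The authors' deposited log2 fold is shrunken against the group means (median ratio 0.735 over called members), so ratios of the group means are printed. The header names dmA12 and dLuc were read as the labels' mA2 and Con because the series holds 1 contrast.

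The 4 per-library columns match no sample label and were not used, so no error, depth or test per library was computed, and whether a difference exceeds the spread between libraries rests on the authors' adjusted p. The deposited adjusted p equalled a Benjamini-Hochberg adjustment over all peaks to within 7.4e-06. Members and lists were chosen with earlier results of these data known. Named peaks were every called member, the smallest p and nearest peak per list, peaks within 1 kb with an unadjusted p under 0.05, the 5 highest means and the 5 smallest uncalled p, the 5 genes with most peaks, and biogenesis peaks called or with the smallest p. Other peaks named were chosen after their values were seen. Centrings subtracted the median of all peaks, of the chromosome, of 2001 neighbours in abundance or of the 10 Mb window. They recomputed p from the standard error implied by the deposited p-value and difference (Python 3.11.15, scipy 1.17.1). A run on simulated data drew p from the same normal relation that the step inverts, so it checks the arithmetic only. Whether that relation holds for the deposited p, given beside a shrunken log2 fold, was not tested. RefSeq tables of GRCm38.p6, the same build as mm10, were matched by gene identifier.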

Additional observations from a re-analysis of the deposited data

How the results depend on the processing

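No paired analysis was possible because no column of single libraries names a sample or a replicate number. For the same reason the limma fit with a trend, the fit with the replicate block, leaving out each library and further library scalings were not run. Without library depth, no limit on detection can be given. An adjusted p under 0.01 left 40 rises and 2 falls, and all peaks were not counted at that threshold. Peaks within 10 kb of the start site held 18 rises and 2 falls among 908 peaks. Up to 1 kb 2.08% were called, beside 1.42% of all peaks, and from 1 to 10 kb 2.23% beside 2.10%. The median log2 difference within 10 kb was 0.0925, beside 0.0673 over all peaks at that distance. Counting 1 peak per gene left 46 rises, or a median of 0.0832 for the highest peak of each gene. These counts are lower by construction. Centring gave 17 falls (median of all peaks), 15 (chromosome), 14 (abundance) and 16 (10 Mb window), and the last also left 47 rises. Every centring lowered the median log2 difference, to 0.0293, 0.0331, 0.0235 and 0.0301 in that order. The cause of the change under centring was not tested. The remaining alternatives kept the counts within 1.5 times. Among named peaks, only differences that passed no test turned sign when centred: Mir7009 to -0.0004 (all peaks) and -0.0066 (window), Mir7030 to -0.0196 (all peaks), Mir7032 to -0.0555 (all peaks) and -0.0262 (abundance), Mir615 to -0.1012 (chromosome) and -0.0416 (window), and Mir22hg to -0.0832, -0.0911, -0.0534 and -0.0797 in the order above. The centring of the Ago2 peak was added after seeing the data.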
